A study of Mus musculus with 9 samples.

Results

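The 9 genes described here are used as markers of the luminal epithelium, and they were followed in NMuMG cells, an immortalized mouse mammary gland epithelial line. They are *Wfdc2*, *Epcam*, *Cd24a*, *Muc1*, *Prom1*, *Gata3*, *Prlr*, *Cd9* and *St14*, 9 of the 52459 gene symbols quantified, and they were taken by symbol. All but *Gata3*, which encodes a transcription factor, encode surface or secreted proteins. The panel was chosen by its members' known use as markers and with the measured increase of *Wfdc2* in EPR cells already known, so the values of EPR against mock cells are given below as a description and without a test. The RNA-Seq libraries are 3 of mock cells, which carry the empty expression vector, 3 of cells overexpressing the long non-coding RNA EPR (BC030870) and 3 of cells overexpressing EPRSTOPE, a point mutant of the same RNA that cannot make the small peptide EPR encodes. All cells were stably transfected with pBICEP-based vectors and selected with G418 as pools, and the comparisons address what the RNA does with and without the peptide. The study calls the libraries of a condition biological triplicates, and it mentions independent EPRSTOPE pools in a follow-up, but no source used here ties each library to a pool of its own, so p-values measure the spread between libraries, and a difference between pools cannot be told apart from a difference between conditions.

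The ducts and alveoli of the mammary gland are lined by luminal cells, which face the lumen and secrete milk, and these rest on contractile basal, or myoepithelial, cells. Luminal cells carry adhesion and mucin-type glycoproteins on their surface (*Epcam*, *Cd24a*, *Muc1*), release protease inhibitors of the whey acidic protein type (*Wfdc2*), process surface proteins with membrane-bound serine proteases such as matriptase (*St14*) and respond to prolactin through its receptor (*Prlr*). GATA3 is the transcription factor that maintains their fate.

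Library depth ran from 5972457 to 11876435 estimated counts, at which 3 counts correspond to 0.253 to 0.502 CPM (counts per 1000000 counts of a library, normalized by TMM where given as the level of a gene). EPR RNA was at 0, 0 and 2 estimated counts in mock, between 214 and 271 in EPR and between 28 and 39 in EPRSTOPE libraries, in the order of the labels. EPR cells therefore held 5.90 times the level of EPRSTOPE cells (95% interval for counting error 4.79 to 7.35), and in the direct comparison of these cells the peptide, the level of the RNA and the pool cannot be told apart. The keratins of simple epithelia *Krt8* and *Krt18* were abundant in all 3 conditions, with means of 2108 and 1526 CPM in mock cells. In contrast, 2 defining epithelial markers were missing or almost missing from mock cells. *Epcam* had no count there and *Cdh1* (E-cadherin) was at 0.84 ± 0.46 CPM (SD, n = 3).

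The 9 genes did not behave as a block, as the plot of CPM by library shows. *Wfdc2* and *Cd9* were higher in both overexpressing populations than in mock cells, *Epcam* was counted almost solely in EPR cells, *Cd24a* was highest in EPRSTOPE cells and *Muc1* was lowest there. *Gata3* was low throughout, *Prlr* and *Prom1* were near the detection limit, and the counts of *St14* and *Prom1* did not fall on any protein-coding transcript.

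**Figure D1:**
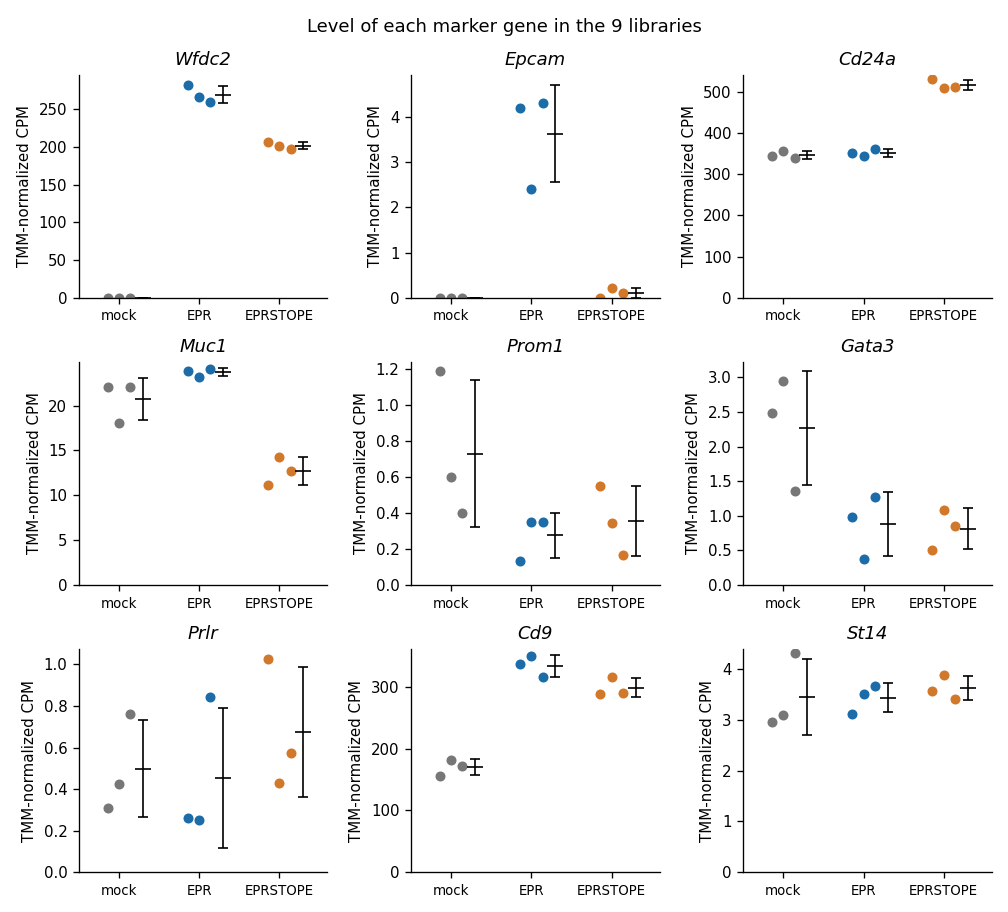
Level of each of the 9 genes in TMM-normalized CPM (vertical axes, linear, starting at 0, each with its own range) in the 3 mock, 3 EPR and 3 EPRSTOPE libraries (points); the black dash and bar beside each group are the mean and SD of 3 libraries. *Wfdc2* is near 0 in mock cells and at 197 to 282 CPM in all other libraries, *Epcam* rises off the axis in the EPR libraries, and *Cd24a* and *Muc1* stand apart in EPRSTOPE cells in opposite directions.

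Genes that reached 1 CPM in 3 or more libraries entered a single fit with edgeR's quasi-likelihood test, and a gene was called where its log2 fold change exceeded 0.5 in size and its Benjamini-Hochberg adjusted p was under 0.01. Of the 9 genes, 7 passed the filter. *Wfdc2* passed through the EPR and EPRSTOPE libraries alone, *Epcam* through the EPR libraries alone, and *Gata3* had 3 mock libraries at 1 CPM but 1 library in each other condition, so the counts that follow are a description and no measure of how often luminal genes change. No p-value is given for *Epcam*, which had to differ to be tested, or for *Wfdc2*, which was picked for its rise over these mock libraries. In EPRSTOPE against mock cells, 3 of the 7 were called higher (*Wfdc2*, *Cd24a* and *Cd9*) and 1 lower (*Muc1*), where 28.0% of the 15370 tested genes were called, 15.6% higher and 12.4% lower. In EPR against EPRSTOPE cells, 2 were called higher (*Epcam* and *Muc1*) and 1 lower (*Cd24a*), where 13.2% of tested genes were called, 6.86% higher and 6.35% lower. The calls of *Wfdc2* and *Epcam* in these counts follow from how they were chosen or passed the filter and support nothing. In EPR against mock cells, the comparison used in choosing the panel, *Wfdc2*, *Epcam* and *Cd9* lay past the same cut-offs on the higher side and none on the lower. The share of tested genes past them was 28.1%, 15.2% higher and 12.9% lower, and nothing is read from this count. At an adjusted p under 0.05 with no minimum fold change, 5 of the 7 differed in EPRSTOPE against mock cells (48.4% of tested genes) and 4 of the 7 in EPR against EPRSTOPE cells (30.2%). The libraries of the conditions did not overlap for 5 of the 7 in EPRSTOPE against mock cells (56.5% of tested genes), for 4 of the 7 in EPR against EPRSTOPE cells (43.0%) and for 5 of the 7 in EPR against mock cells (57.8%). The median log2 fold change of the 7 genes was 0.58 in EPRSTOPE against mock and 0.16 in EPR against EPRSTOPE cells, against -0.04 and 0.01 over all tested genes. Both medians include *Wfdc2* and *Epcam*, so nothing is read from them. The remaining genes went both ways in EPRSTOPE against mock cells (*Cd24a* 0.58, *Cd9* 0.81, *St14* 0.06, *Muc1* -0.69 and *Gata3* -1.44). EPR and EPRSTOPE cells are compared with the same mock libraries, so these columns of values are not independent of each other.

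**Figure D2:**
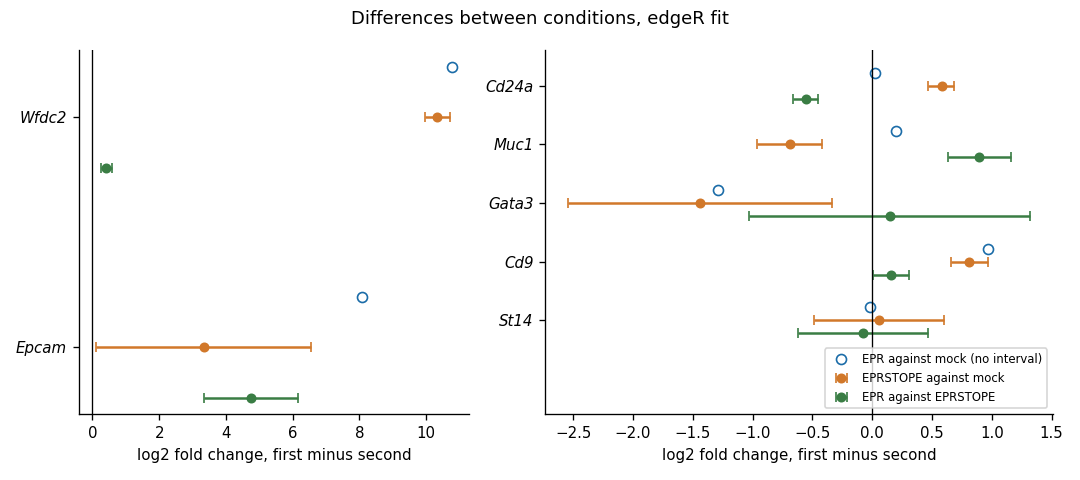
Log2 fold change (horizontal axis, first condition minus second) of the 7 tested genes in the edgeR fit. Filled points with bars (95% intervals) are EPRSTOPE against mock in orange and EPR against EPRSTOPE in green, and open points are EPR against mock, shown without an interval because that comparison was used to choose the panel. For *Cd24a* and *Muc1* the filled points lie on opposite sides of 0, and for *Wfdc2* and *Cd9* the open and filled points of the comparisons with mock cells lie close together.

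*Wfdc2* encodes a small secreted protein with whey acidic protein (WAP) domains, known clinically as HE4 and made by glandular epithelia. Its gene (ENSMUSG00000017723.11) lies on the plus strand of chromosome 2 of GRCm38, from 164562413 to 164568510. The mock libraries held 0, 2 and 2 estimated counts, the EPR libraries 3230, 2111 and 2781, and the EPRSTOPE libraries 1222, 1881 and 1716. After normalization these were 0.125 ± 0.111 CPM in mock, 269.5 ± 11.3 CPM in EPR cells and 201.8 ± 4.9 CPM with EPRSTOPE (SD, n = 3 each). No mock library came near any of the others, and every EPR library, the lowest at 259.9 CPM, exceeded every EPRSTOPE library, the highest at 207.0 CPM. In EPRSTOPE against mock cells the log2 fold change was 10.34 (standard error 0.17), given as a description. As the mock value rests on 4 counts in all, the ratio of the summed CPM, 1418, has an interval for counting error alone of 553.5 to 5207. The corresponding ratio in EPR cells was 1904 (743.3 to 6989). Between the overexpressing populations the EPR level of *Wfdc2* was 1.34 times the EPRSTOPE level (log2 fold change 0.42, standard error 0.08), which was under the fold change required for a call. With counts rebuilt from TPM and length the log2 fold change was 0.43, and there the difference missed the cut-off for the adjusted p as well. The difference in *Wfdc2* was thus much smaller than that in EPR RNA itself.

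For *Wfdc2*, 5 transcripts are annotated, 4 of them protein coding, and 99.4% of its counts fell on the protein-coding ones. The longest, Wfdc2-201 (849 bases), took 74.3% to 86.2% of the counts in EPR and 75.5% to 95.5% in EPRSTOPE libraries, so its share overlapped between the populations. The 4 mock counts were too few for a share. For Wfdc2-203 (558 bases) the shares were 5.3%, 7.0% and 0.9% in EPR and 0.0%, 0.6% and 0.8% in EPRSTOPE libraries, which did not overlap but lay close together at their ends (exact permutation test, two-sided p = 0.1, the smallest that 3 against 3 libraries allow).

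*Epcam* encodes the epithelial cell adhesion molecule, a surface glycoprotein of most simple epithelia that binds to itself on neighbouring cells. Its gene (ENSMUSG00000045394.8 in the deposited annotation) is on the plus strand of chromosome 17, from 87635979 to 87651129, and 1 transcript is annotated. No mock library held a count. The EPR libraries held 48, 19 and 46 counts, or 4.19, 2.40 and 4.30 CPM, and the EPRSTOPE libraries 0, 2 and 1. All EPR libraries stood above all others, and the EPRSTOPE libraries overlapped with the mock libraries. With 113 counts in EPR and 3 in EPRSTOPE cells, the ratio of CPM has an interval for counting error of 10.0 to 147.7, and the fitted log2 fold change was 4.74 (standard error 0.63). *Epcam* entered the fit through the EPR libraries alone, so this value is a description and not a test. Against an assumed floor of 3 counts over the mock libraries, the ratio of *Epcam* in EPR cells was 35.3. This ratio depends on the floor chosen and has no interval for counting error. Even so, at 1.59 ± 0.40 TPM (transcripts per 1000000, a unit scaled for length; SD, n = 3) in EPR cells it remained far below *Muc1*, at 21.3 ± 3.3 TPM. *Epcam* could not be tested with a filter of 10 counts in every library, nor when any EPR library was left out, because too few libraries then reached 1 CPM.

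The segments before the annotated start sites of *Wfdc2*, *Epcam* and *Muc1* are shown because these genes span the patterns seen, a rise in both populations, a rise in EPR cells and a fall in EPRSTOPE cells. They come from RefSeq on GRCm38.p6, and capitals mark CACCTG or its reverse complement CAGGTG, an E-box of the kind read by the repressors of the Snail and ZEB families, and ACCGGT, which is its own reverse complement and resembles the core of sites bound by Grainyhead-like factors.
Wfdc2, chr2:164562465-164562714, plus strand: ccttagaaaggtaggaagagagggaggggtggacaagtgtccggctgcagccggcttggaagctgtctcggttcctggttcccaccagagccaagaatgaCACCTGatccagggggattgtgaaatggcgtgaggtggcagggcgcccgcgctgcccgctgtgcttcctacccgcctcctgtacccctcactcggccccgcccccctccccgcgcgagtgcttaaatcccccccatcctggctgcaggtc
Epcam, chr17:87635729-87635978, plus strand: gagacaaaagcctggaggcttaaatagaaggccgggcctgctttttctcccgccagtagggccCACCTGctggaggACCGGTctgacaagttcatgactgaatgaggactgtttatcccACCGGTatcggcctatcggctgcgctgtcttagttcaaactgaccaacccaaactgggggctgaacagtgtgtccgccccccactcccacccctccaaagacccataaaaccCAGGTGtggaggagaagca
Muc1, chr3:89228806-89229055, plus strand: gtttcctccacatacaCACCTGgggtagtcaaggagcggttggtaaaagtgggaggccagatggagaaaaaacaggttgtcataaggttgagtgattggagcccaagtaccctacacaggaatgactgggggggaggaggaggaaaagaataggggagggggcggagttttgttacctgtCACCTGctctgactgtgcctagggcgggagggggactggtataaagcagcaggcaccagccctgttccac

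In these segments of 250 bases, the E-box begins 150 bases before the start in *Wfdc2*, 187 and 19 bases before it in *Epcam*, and 234 and 70 bases before it in *Muc1*. Over the RefSeq windows from 250 bases before to 50 bases after the start, 11 windows of 7 members were found, and *Cd24a* and *St14* had no entry. On either strand CACCTG occurred in a window of 6 of the 7 genes (*Wfdc2*, *Epcam*, *Muc1*, *Prom1*, *Prlr* and *Cd9*), and 22.6% of 27025 genes have a window with it. A gene with more windows has more room for a match. Counted by window, 7 of the 11 held it, with both nearly identical windows of *Wfdc2* included, and 20.2% of all 32851 windows did. ACCGGT occurred in *Epcam* alone, with 2 matches, and 2.7% of genes have it. AGATAA, a motif of GATA factors, occurred in none of the 7, and 12.7% of genes have it. The letters do not overlap between the motifs. A match describes the sequence only, and the RefSeq start of *Wfdc2* lies inside the gene as Gencode M21 draws it.

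*Cd24a* encodes a small, heavily glycosylated surface protein with a lipid anchor, which is high on luminal cells (ENSMUSG00000047139.9, plus strand of chromosome 10, from 43578284 to 43584265). Its level was 343.3, 356.7 and 338.9 CPM in mock libraries, 350.4, 343.0 and 361.7 CPM in EPR libraries and 531.1, 509.3 and 510.0 CPM in EPRSTOPE libraries. The EPRSTOPE libraries stood above all others, while mock and EPR libraries were interleaved. *Cd24a* rose in EPRSTOPE against mock cells (log2 fold change 0.58, standard error 0.05, adjusted p = 1.1e-06), and it was lower in EPR than in EPRSTOPE cells (log2 fold change -0.55, standard error 0.05, adjusted p = 5.2e-06).

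The reading of *Cd24a* depended on the unit. On the TPM scale the mock libraries were at 255.4 to 294.2, the EPR libraries at 189.6 to 225.4 and the EPRSTOPE libraries at 293.4 to 368.1, so EPR cells were the lowest without overlap and the mock and EPRSTOPE ranges touched. With counts scaled from TPM and length, the log2 fold change of EPRSTOPE against mock cells was 0.45 (adjusted p = 0.0076), below the 0.5 required for a call, whereas that of EPR against EPRSTOPE cells stayed past both cut-offs (-0.65, adjusted p = 0.0024). The split between transcripts is given beside this. Cd24a-201 (1816 bases) took 77.8% to 81.9% of the counts of the gene in mock, 87.9% to 94.8% in EPR and 82.1% to 94.7% in EPRSTOPE libraries, and the shorter Cd24a-202 (743 bases) took nearly all of the rest. The mean share of Cd24a-201 was 9.2 percentage points higher in EPRSTOPE than in mock libraries, which did not overlap (exact permutation test, two-sided p = 0.1, the smallest possible). Both transcripts are annotated as protein coding.

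*Muc1* encodes a transmembrane mucin of the apical surface (ENSMUSG00000042784.9, plus strand of chromosome 3, from 89229057 to 89233381). Its level was 22.06, 18.04 and 22.06 CPM in mock, 23.91, 23.24 and 24.11 CPM in EPR and 11.18, 14.31 and 12.66 CPM in EPRSTOPE libraries. All EPRSTOPE libraries lay below all others, and the EPR libraries lay just above the mock libraries. *Muc1* fell in EPRSTOPE against mock cells (log2 fold change -0.69, standard error 0.12, adjusted p = 0.00054) and was higher in EPR than in EPRSTOPE cells by 0.89 (standard error 0.12, adjusted p = 0.00017). With counts scaled from TPM and length, EPRSTOPE against mock cells gave -0.84 but missed the threshold (adjusted p = 0.015). The coding transcript Muc1-201 held 79.8% of the counts over all libraries, and its share overlapped between all pairs of conditions. On the chromosome, *Thbs3* and *Trim46*, the closest tested genes on either side and named here after their values were seen, also had lower values in EPRSTOPE against mock cells, with log2 fold changes of -6.69 and -4.11, both called. They were called in EPR against mock cells too (-4.86 and -2.24), where *Muc1* was at 0.20. Whether reads are shared between these closely spaced genes was not tested.

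*Cd9* encodes a tetraspanin, a membrane protein that gathers integrins and immunoglobulin-type partners into surface microdomains (ENSMUSG00000030342.8, minus strand of chromosome 6, from 125460266 to 125494791). It was at 155.5, 181.5 and 172.3 CPM in mock, 337.2, 349.2 and 315.2 CPM in EPR and 288.9, 316.2 and 290.6 CPM in EPRSTOPE libraries. The mock libraries were the lowest without overlap, and the EPR and EPRSTOPE libraries overlapped. *Cd9* rose in EPRSTOPE against mock cells (log2 fold change 0.81, standard error 0.07, adjusted p = 1.3e-06), and the value in EPR against mock cells was 0.97. Between EPR and EPRSTOPE cells the difference was 0.16 (95% interval 0.01 to 0.31, adjusted p = 0.11) and did not pass the test. The coding transcript Cd9-201 took 65.2% to 95.8% of the counts with wide scatter among the mock libraries. The retained-intron transcript Cd9-203 took a small share, 2.4% to 3.0% in mock, 0.8% to 1.3% in EPR and 0.6% to 1.1% in EPRSTOPE libraries, and was lower by a mean of 1.8 percentage points in EPRSTOPE than in mock libraries without overlap (exact permutation test, two-sided p = 0.1, the smallest possible).

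**Figure D3:**
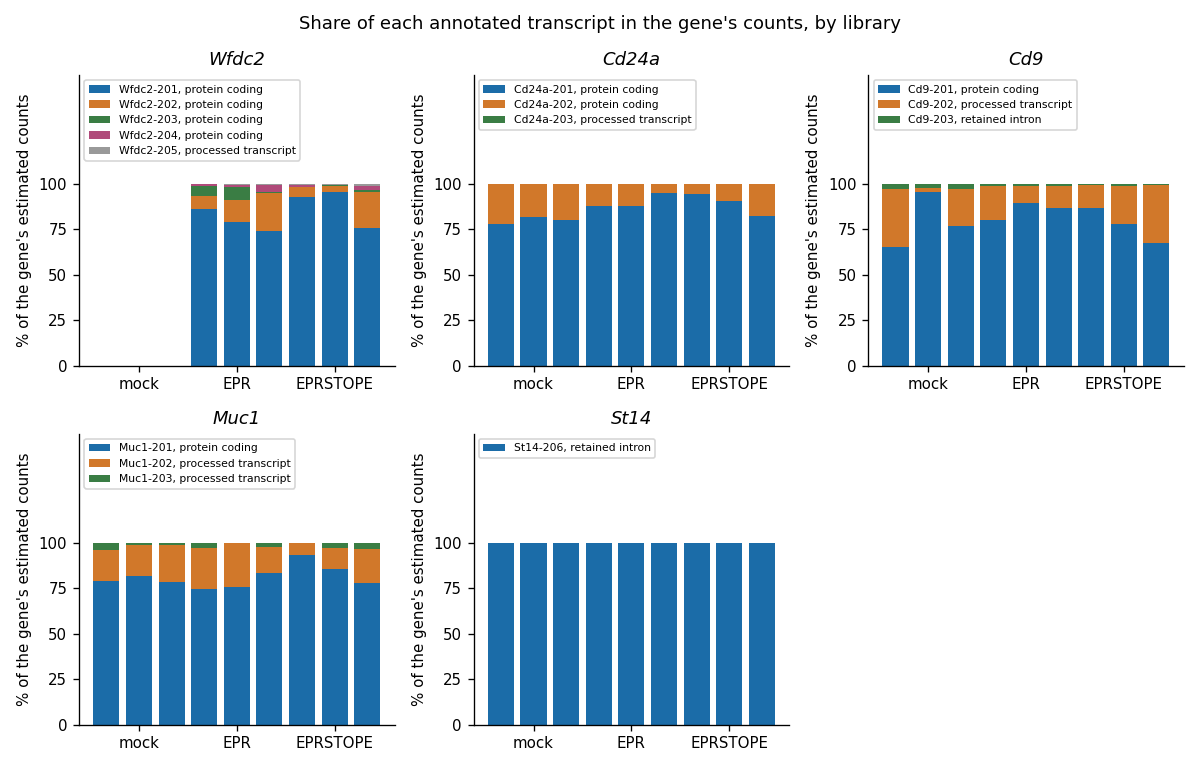
Share of the estimated counts of each gene (vertical axis, % per library) that fell on each annotated transcript with counts, for *Wfdc2*, *Cd24a*, *Cd9*, *Muc1* and *St14*; each bar is 1 library, ordered as 3 mock, 3 EPR and 3 EPRSTOPE, and libraries with fewer than 10 counts of a gene have no bar. The St14 bars consist of the retained-intron transcript St14-206 in all 9 libraries, and the share of Cd24a-202 is largest in mock libraries.

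*Gata3* (ENSMUSG00000015619.10, minus strand of chromosome 2, from 9857078 to 9890034) was scarce in all cells. It was at 2.49, 2.96 and 1.36 CPM in mock, 0.985, 0.379 and 1.28 CPM in EPR and 0.508, 1.08 and 0.855 CPM in EPRSTOPE libraries, or 60.7, 27.9 and 20.6 estimated counts summed over the conditions. Each mock library lay above each EPRSTOPE library. The log2 fold change of EPRSTOPE against mock cells was -1.44 (standard error 0.50, adjusted p = 0.032), which did not pass the threshold of 0.01. *Gata3* entered the fit through its mock libraries, where it was highest, so these p-values are no independent evidence of a difference. The call depended on the counts used, since scaling from TPM and length gave -2.42 with an adjusted p of 0.0099. On the TPM scale the largest part in mock libraries was Gata3-205, a processed transcript of 243 bases. It was at 2.95, 0.82 and 0.76 TPM there, from 2.6, 1.6 and 1.5 estimated counts. The coding Gata3-201 was at 0.48, 0.75 and 0.27 TPM in mock and 0.14, 0.31 and 0.19 TPM in EPRSTOPE libraries, which overlapped. The part of Gata3-205 in the call was not tested. Between EPR and EPRSTOPE cells the difference was 0.15, with an interval of -1.03 to 1.32 that allows a halving as well as a doubling.

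*St14* encodes matriptase, a transmembrane serine protease of epithelial surfaces (ENSMUSG00000031995.9, minus strand of chromosome 9, from 31089402 to 31131853). Its level was close to equal in the conditions, at 3.46 ± 0.75 CPM in mock, 3.44 ± 0.29 CPM in EPR cells and 3.63 ± 0.24 CPM with EPRSTOPE (SD, n = 3 each). The libraries overlapped in every comparison. The log2 fold change was 0.06 in EPRSTOPE against mock cells (95% interval -0.49 to 0.60) and -0.08 in EPR against EPRSTOPE cells (-0.62 to 0.47). However, all 291.8 estimated counts over the 9 libraries fell on St14-206, a retained-intron transcript of 1 exon and 3550 bases, and the sole protein-coding transcript, St14-201, had none in any library. In Gencode M21, 90.5% of the bases of St14-206 lie outside the exons of St14-201. The level of *St14* as summed per gene therefore rests on no protein-coding transcript.

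*Prom1* encodes prominin-1, a pentaspan protein of apical membrane protrusions (ENSMUSG00000029086.15, chromosome 5). The same held for it at a still lower level. It had 7.6, 5.7 and 4.9 estimated counts in mock, 1.5, 2.8 and 3.7 in EPR and 3.3, 3.2 and 1.4 in EPRSTOPE libraries, and it did not pass the filter. All 34.1 counts fell on the retained-intron transcript Prom1-219, of which 70.5% of the bases lie outside the exons of the 12 protein-coding transcripts, and none of these had a count.

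*Prlr* encodes the prolactin receptor (ENSMUSG00000005268.20, plus strand of chromosome 15, from 10177238 to 10349180). It did not pass the filter either, with 2.0, 4.0 and 9.4 counts in mock, 3.0, 2.0 and 9.0 in EPR and 6.1, 4.0 and 5.0 in EPRSTOPE libraries. The libraries of all 3 conditions overlapped, and 54.1% of the 44.4 counts lay on Prlr-209, a transcript annotated for nonsense-mediated decay. In EPRSTOPE against mock cells the CPM overlapped for both genes (exact permutation test, two-sided p = 0.5 for *Prlr* and 0.2 for *Prom1*), where 0.1 is the smallest p that 3 against 3 libraries allow. In EPR cells *Prom1* was at 0.276 ± 0.125 CPM against 0.730 ± 0.409 CPM in mock cells (SD, n = 3 each), without overlap. With so few counts and 3 libraries a condition, differences in these genes cannot be resolved.

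Set side by side on the TPM scale, which corrects for length, the order of the 9 genes differed between the conditions. In mock cells *Cd24a* (279 ± 21 TPM), *Cd9* (174 ± 8) and *Muc1* (19.4 ± 2.4) followed each other without overlap, and *Gata3*, *Prom1*, *St14*, *Wfdc2* and *Prlr* came next with each neighbour's range overlapping the one after it (SD, n = 3). In EPR cells *Wfdc2* led with 442 ± 9 TPM, above *Cd9* at 290 ± 28 and *Cd24a* at 212 ± 19, again without overlap between neighbours. In EPRSTOPE cells *Cd24a* (339 ± 40), *Wfdc2* (335 ± 63) and *Cd9* (286 ± 59) overlapped and could not be ordered. The TPM of the 9 genes summed to 447 to 493 in mock, 921 to 993 in EPR and 805 to 1076 in EPRSTOPE libraries, and most of the gap to the mock libraries is that of *Wfdc2* itself.

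The gene whose profile over the 9 libraries was most like that of *Wfdc2* was *Cdh1*, among 9934 tested genes with at least 10 CPM in their highest condition. Likeness is the root mean square difference between log2 CPM profiles after each was centred on its mean, and it was 0.288 for *Cdh1*, 0.531 for *Plac8* and 0.611 for *Gsdmd*. *Cdh1* was at 556 ± 14 CPM in EPR cells and 403 ± 23 CPM with EPRSTOPE, *Plac8* at 253 ± 10 and 370 ± 14, and *Gsdmd* at 373 ± 21 and 319 ± 16 (SD, n = 3 each), with mock means under 1 CPM for all 3. *Cdh1* and *Gsdmd* thus shared the order of *Wfdc2*, with EPR above EPRSTOPE, and *Plac8* had the opposite order. The closest profiles to the others were those of *Fgf1* for *Epcam* (0.343), *Tmed10* for *Cd24a* (0.057), *Pcnx3* for *Muc1* (0.070), *AC124453.1* for *Gata3* (0.232), *Cacnb3* for *Cd9* (0.062) and *Cdip1* for *St14* (0.090). All candidates share the same 9 libraries, and the more a gene changes the larger its distances become.

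Genes on the chromosome around *Wfdc2* had smaller fold changes. Of the 5 tested genes on each side, from *Sdc4* to *Acot8* (named after their values were seen), 4 were called higher and 1 lower in EPRSTOPE against mock cells. Among all tested genes 15.6% were called higher and 12.4% lower there. The neighbours had a median log2 fold change of 0.47 and a range of -2.15 to 2.99, against 10.34 for *Wfdc2*, and the gene at 2.99 was not called. In EPR against EPRSTOPE cells their median was -0.32. Around *Epcam*, the median of the 10 neighbours was -0.20 in EPR against EPRSTOPE cells with a range of -0.82 to 0.20, against 4.74 for *Epcam*. Of these neighbours 4 were called lower and 0 higher, where 6.35% of all tested genes were called lower and 6.86% higher.

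The lists of partner and cell type genes below are set beside all tested genes. In EPRSTOPE against mock cells 15.6% of those were called higher and 12.4% lower, with a median log2 fold change of -0.04. In EPR against EPRSTOPE cells the shares were 6.86% and 6.35%, with a median of 0.01. The WAP four-disulfide core family, to which *Wfdc2* belongs and whose members are mostly small secreted protease inhibitors, was otherwise hardly counted. Of 14 further genes of the list, 12 did not reach 1 CPM in 3 libraries, and *Slpi*, the secretory leukocyte protease inhibitor, was the sole one called. *Slpi* was at 0, 0 and 0.16 CPM in mock, 37.8, 35.7 and 31.3 CPM in EPR and 102.7, 111.5 and 108.5 CPM in EPRSTOPE libraries. All mock libraries lay below all others, and the EPR libraries lay below the EPRSTOPE libraries. *Slpi* rose in EPRSTOPE against mock cells (log2 fold change 10.32, standard error 0.24). No p-value is given for this rise, because *Slpi* passed the filter through the overexpressing libraries alone. It was lower in EPR than in EPRSTOPE cells (log2 fold change -1.62, standard error 0.11, adjusted p = 5.8e-07), whereas *Wfdc2* had its higher value in EPR cells.

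Partners of EPCAM and matriptase were missing for the most part. *Cldn7*, a tight junction protein that binds EPCAM, had counts in 2 EPR libraries only, and *Spint1* and *Prss8*, an inhibitor and a partner protease of matriptase, did not pass the filter. Of the 12 genes of this list 4 were tested, and in EPRSTOPE against mock cells 2 were called higher and 1 lower, with a median log2 fold change of 0.78. *Spint2*, the second matriptase inhibitor, rose from 21.1 ± 3.1 CPM in mock to 77.4 ± 5.2 CPM in EPRSTOPE cells (log2 fold change 1.88, standard error 0.10, adjusted p = 1.3e-08) and was at 104.5 ± 0.8 CPM in EPR cells (SD, n = 3 each). *F2rl1*, the protease-activated receptor PAR-2, rose from 17.4 ± 0.6 to 105.4 ± 8.3 CPM (log2 fold change 2.6, adjusted p = 5.2e-10) and was at 132.4 ± 13.1 CPM in EPR cells. *Met*, the receptor of hepatocyte growth factor, was at 355.6 ± 10.5, 208.5 ± 9.8 and 284.3 ± 1.3 CPM in mock, EPR and EPRSTOPE cells, and the difference between the last 2 (log2 fold change -0.45, adjusted p = 6.3e-05) was under the fold change required. The gene called lower was *Mst1r*.

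In the prolactin and luminal hormone axis 13 of 18 genes were tested, and 4 were called higher and 5 lower in EPRSTOPE against mock cells, with a median of -0.41. The transducer *Stat5a* rose from 3.67 ± 0.59 to 13.3 ± 0.4 CPM (SD, n = 3 each; log2 fold change 1.86, standard error 0.17, adjusted p = 2e-06), with 11.3 ± 1.0 CPM in EPR cells, and its more abundant paralog *Stat5b* was at 26.2 ± 0.6, 22.5 ± 0.4 and 24.96 ± 1.03 CPM in mock, EPR and EPRSTOPE cells and was not called. *Elf5*, the luminal progenitor factor downstream of prolactin, stayed near 1 CPM. The estrogen receptor *Esr1* had no count in any library. *Foxa1*, a pioneer factor that acts with GATA3 in hormone-sensing luminal cells, was at 8.15 ± 0.78 CPM in mock cells. It was at 0.074 ± 0.064 CPM in EPRSTOPE cells (log2 fold change -6.4, standard error 0.58) and 0.21 ± 0.18 CPM in EPR cells. No p-value is given for *Foxa1*, which passed the filter through its mock libraries alone. The GATA family repressor *Trps1* was at 5.52 ± 1.33 CPM in mock, 11.1 ± 1.2 CPM in EPR and 0.18 ± 0.31 CPM in EPRSTOPE cells, and it differed between EPR and EPRSTOPE cells (adjusted p = 8.7e-06). The epidermal growth factor receptor ligand *Areg*, an estrogen target in the normal gland, rose from 43.9 ± 0.5 to 333.0 ± 9.1 CPM in EPRSTOPE cells (log2 fold change 2.92, adjusted p = 3.9e-11), above the 215.5 ± 21.0 CPM of EPR cells (log2 fold change of EPR against EPRSTOPE -0.63, adjusted p = 3.3e-05).

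Milk genes were called in part and without caseins. Of 15 listed, 5 passed the filter, and the caseins and *Lalba* did not. In EPRSTOPE against mock cells *Lcn2* and *Xdh* were called higher and none lower, with a median log2 fold change of 0.44 over the 5. *Lcn2*, an iron-siderophore binding protein, rose from 0.467 ± 0.060 to 60.3 ± 7.5 CPM (log2 fold change 6.98, standard error 0.16). It too passed the filter through the overexpressing libraries alone, so no p-value is given for this rise. In EPR cells *Lcn2* was at 140.0 ± 3.2 CPM, higher than in EPRSTOPE cells (log2 fold change 1.22, standard error 0.08, adjusted p = 5.2e-07). *Xdh*, xanthine dehydrogenase of the milk fat globule membrane, had the opposite order, with 0.58 ± 0.32, 40.1 ± 2.5 and 112.3 ± 6.9 CPM in mock, EPR and EPRSTOPE cells and a log2 fold change of EPR against EPRSTOPE of -1.48 (standard error 0.10, adjusted p = 4.4e-07).

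Among the apical membrane and mucin genes 4 of 11 were tested, and 2 were called higher and 1 lower in EPRSTOPE against mock cells, with a median of 0.62. The transmembrane mucin *Muc13* was at 0.16 ± 0.16 CPM in mock, 2.41 ± 1.22 CPM in EPR cells and 8.75 ± 1.04 CPM with EPRSTOPE (SD, n = 3 each). It was lower in EPR than in EPRSTOPE cells (log2 fold change -1.90, standard error 0.37, adjusted p = 0.0022), where *Muc1* was higher. The scaffold *Slc9a3r1* (also named EBP50) rose from 49.4 ± 3.5 to 88.8 ± 2.8 CPM (log2 fold change 0.85, adjusted p = 2.5e-06). *Prom2*, the paralog of *Prom1*, had a count in 1 EPRSTOPE library only. The gene called lower was *Crb3*.

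Tetraspanins and partners of CD9 were well measured, with 19 of 21 tested. In EPRSTOPE against mock cells 8 were called higher and 2 lower, with a median log2 fold change of 0.41, and in EPR against EPRSTOPE cells 2 were called higher and 2 lower, with a median of 0.04. *Cd81*, the closest relative of *Cd9*, rose from 91.0 ± 5.9 to 219.3 ± 2.4 CPM (log2 fold change 1.27, standard error 0.06, adjusted p = 6.7e-09) and was at 301.8 ± 8.3 CPM in EPR cells. *Cd82* rose from 16.0 ± 3.0 to 46.8 ± 3.1 CPM (log2 fold change 1.53, adjusted p = 4.4e-07). *Ptgfrn*, which binds CD9 and CD81 directly, rose from 153.0 ± 3.5 to 268.9 ± 11.7 CPM (log2 fold change 0.81, adjusted p = 1.6e-07), whereas *Igsf8*, the other such partner, was at 99.99 ± 7.38 and 114.7 ± 7.1 CPM and was not called (log2 fold change 0.20, adjusted p = 0.036). *Cd63*, a tetraspanin of late endosomes, was lower in EPR than in EPRSTOPE cells (153.4 ± 5.6 and 242.0 ± 14.9 CPM, log2 fold change -0.66, adjusted p = 9.8e-06). *Tspan6* had no count in EPR cells and was at 11.4 ± 1.4 CPM in mock cells and 4.19 ± 1.001 CPM with EPRSTOPE (SD, n = 3 each).

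**Figure D4:**
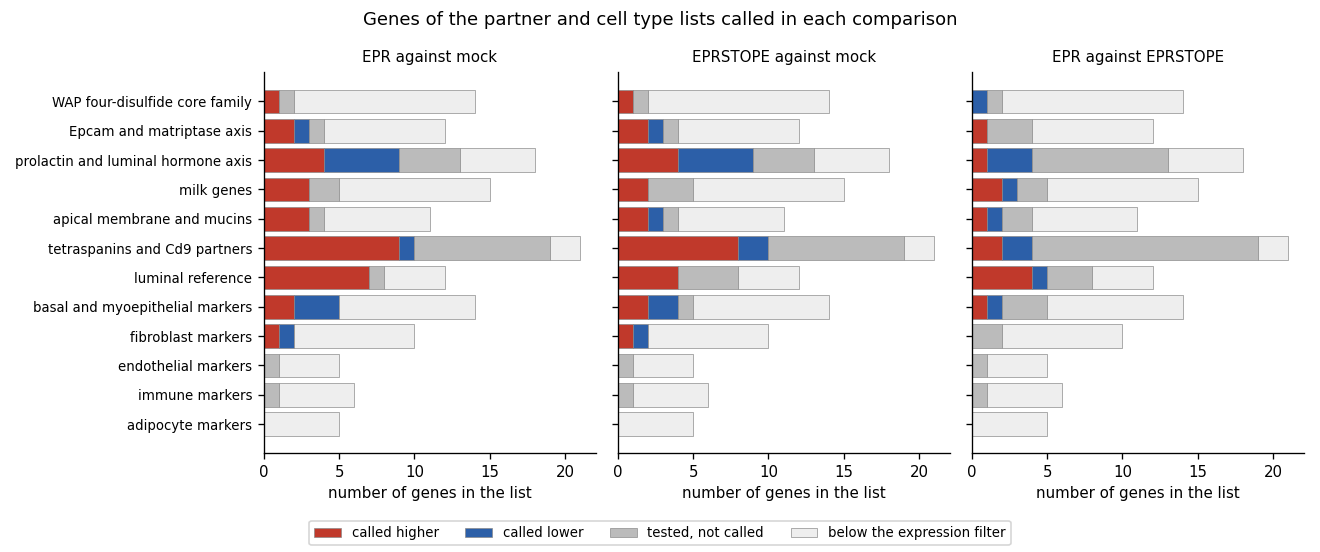
Number of genes (horizontal axes) of each partner and cell type list that were called higher (red), called lower (blue), tested and not called (grey) or below the expression filter (pale) in the 3 comparisons named above the panels. The tetraspanin list has 19 of 21 genes tested, whereas 12 of 14 genes of the WAP family are below the filter, and no adipocyte marker was tested.

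In the reference list of luminal genes, 8 of 12 were tested, and 4 were called higher and none lower in EPRSTOPE against mock cells, with a median of 0.95. *Krt8* and *Krt18* rose by log2 fold changes of 1.5 and 1.44 (adjusted p = 5.1e-10 and 3.7e-09). In EPR against EPRSTOPE cells 4 were called higher and 1 lower. *Ehf* and *Elf3*, epithelial factors of the ETS family, went opposite ways in that comparison, with 17.9 ± 3.2 and 1.94 ± 0.47 CPM for *Ehf* (log2 fold change 3.21, adjusted p = 7.6e-06) and 17.8 ± 0.9 and 31.3 ± 2.3 CPM for *Elf3* (-0.82, adjusted p = 0.00031). *Krt7* was at 9.13 ± 0.60 CPM in EPR and 1.48 ± 0.43 CPM in EPRSTOPE cells (log2 fold change 2.69, adjusted p = 1.7e-05), with 1.88 ± 0.39 CPM in mock cells (SD, n = 3 each). *Epcam* and *Muc1* were therefore not the only luminal genes with a higher level in EPR than in EPRSTOPE cells.

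Markers of other cell types also moved with the conditions. Of the basal and myoepithelial list 5 of 14 were tested, and in EPRSTOPE against mock cells 2 were called higher and 2 lower (median 1.37). *Mylk* rose from 7.84 ± 1.10 to 38.1 ± 1.1 CPM and *Procr* from 2.55 ± 0.34 to 12.3 ± 2.6 CPM, while *Acta2* fell from 10.1 ± 0.7 to 0.80 ± 0.61 CPM (SD, n = 3 each; adjusted p = 6.1e-09, 3.3e-06 and 1.2e-05). The defining basal factor *Trp63* had no count in any condition, and the summed TPM of the list was 13.96 to 19.3 in mock, 16.0 to 20.2 in EPR and 13.3 to 19.6 in EPRSTOPE libraries. Of the fibroblast list 2 of 10 were tested, with *Pdgfra* called higher and *Cxcl12* lower. The median of -2.6 is the midpoint of these 2 opposite values and describes neither gene. *Pdgfra* had no count in mock cells, so each of the 2 passed the filter only through libraries where it was high. Their calls are therefore a description. In mock cells *Cxcl12* measured 49.2 ± 4.6 CPM (SD, n = 3), and it was without a count in the other 6 libraries, and *Col3a1* was without a count in mock and EPR cells. The summed TPM of the fibroblast list was 13.9 to 15.6 in mock, 1.13 to 1.76 in EPR and 1.32 to 1.90 in EPRSTOPE libraries, and *Cxcl12* made up most of it in mock libraries, with 12.1 to 15.1 TPM. Without *Cxcl12* the other 9 genes summed to 0.484 to 1.78 TPM in mock libraries, which overlapped with the other conditions. The part of these markers in the values of *Wfdc2* and *Cd9* was not tested. Of 5 endothelial and 6 immune markers 1 each was tested and none was called (log2 fold changes of EPRSTOPE against mock 0.26 and 0.58), and of 5 adipocyte markers none was tested. In bulk RNA, fewer cells expressing a gene and less RNA of it in each cell cannot be told apart.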

How the data were processed

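RNA was measured in 9 libraries of stably transfected NMuMG cells (3 mock, 3 EPR and 3 EPRSTOPE). By the labels, libraries of stranded total RNA were read in pairs of 75 bases on a NextSeq, whereas the methods of the study name a HiSeq2500. The authors quantified the reads with kallisto 0.43.1 on Gencode vM15 transcripts. The deposited estimated counts are the authors' kallisto output per transcript and library and are not normalized. The deposited TPM values were scaled by the authors for effective length and library size. The submitters' processing notes also name bcl2fastq 2.0. The strand setting of the quantification is not given in the sources used here.

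Estimated counts were summed per gene symbol and rounded. The 15370 genes that reached 1 CPM in 3 or more libraries entered edgeR 4.0.16 and its quasi-likelihood test (R 4.3.3, TMM, 1 factor with 3 levels over all 9 libraries, Benjamini-Hochberg adjustment). Standard errors were derived from its F statistic, and intervals are 95%. Ratios of summed counts have exact binomial intervals, which cover counting error only. Single values were compared with exact permutation tests. The alternatives were DESeq2 1.42.0, limma 3.58.1 with voom, DESeq2 size factors, other filters, counts scaled from TPM and transcript length, fits of 6 libraries, an adjusted p under 0.05 without a minimum fold change, and leaving out each library. On simulated counts for EPRSTOPE against mock cells (14881 genes, 200 changed), edgeR recovered 189 with 1 false call. The changed genes had a median fitted log2 fold change of 1.51 in size, and all genes shared 1 dispersion. The recovery therefore does not carry over to smaller changes such as those of *Cd24a*, *Muc1* and *Cd9*. No libraries of a condition agreed within sampling noise (chi-square per gene 4.70 to 10.7).

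The members, the partner lists and the tests were chosen with earlier results of these data known. Besides the members, the text names direct partners fixed with the lists, up to 2 called genes of each list with the largest increase and 2 with the largest decrease in any comparison (minimum 5 CPM on the higher side), and the genes of most similar profile. Genes named for the size of their change were picked from this same fit, so their p-values are no independent evidence. Genes named only to complete a count of calls, or as neighbours, were chosen after their values were seen. Positions and exons are from Gencode M21 on GRCm38, and promoter windows from RefSeq on GRCm38.p6. A gene of the partner lists is not reported here.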

Additional observations from a re-analysis of the deposited data

Results flagged for a closer look

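The difference between EPR and EPRSTOPE cells passed the cut-offs of the edgeR fit for 3 of the 7 tested members, where 13.2% of all tested genes were called. *Cd24a* was lower in EPR than in EPRSTOPE cells, with a log2 fold change of -0.55, and *Muc1* was higher by 0.89. *Epcam* had a log2 fold change of 4.74, with all EPR libraries above all EPRSTOPE libraries, but it passed the filter on low counts through the EPR libraries alone and fell out of the fit when any of these was left out, so its value is a description and not a test. EPR RNA also differed between these populations, by 5.90 times, and its part in the 3 differences was not tested.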

How the results depend on the processing

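No paired analysis was possible because the libraries of the 3 conditions share no replicate number in the labels. Counts scaled from TPM and transcript length lowered the number of genes called in EPR against EPRSTOPE cells from 2031 to 940, ended the calls of *Cd24a* and *Muc1* in EPRSTOPE against mock cells, called *Gata3* there, and turned the direction of the uncalled *Gata3* in EPR against EPRSTOPE cells (-0.16). The cause was not tested. Uncalled values near 0 also changed sign with single libraries left out. *St14* in EPRSTOPE against mock cells ranged from -0.04 to 0.26 (-0.041 without mock replicate 203 and -0.039 without mock replicate 204), and *Gata3* in EPR against EPRSTOPE cells from -0.21 to 0.46 (-0.21 without EPR replicate 208 and -0.036 without EPRSTOPE replicate 209). With single libraries left out, 4 members were called in EPRSTOPE against mock cells each time, and 2 to 3 in EPR against EPRSTOPE cells, with 2 whenever an EPR library was missing, because *Epcam* then fell below the filter. The other alternatives gave 3 to 5 and 2 to 4 members. Genes called ranged from 3816 to 4328, 3817 to 4251 and 1664 to 2026 with single libraries left out. *Wfdc2* kept its direction in EPRSTOPE against mock cells wherever it was fitted (9.20 to 10.7), and *Cd9* kept its direction and its call in all alternatives (0.75 to 0.87). With limma and voom the value of *Epcam* in EPR against mock cells went from 8.07 to 6.07, and with DESeq2 to 7.50. Depth limits *Gata3*, *Prlr* and *Prom1*, which had fewer than 30 counts in each library.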
